A study of Mus musculus with 6 samples.

Results

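The genes described here make, break down and bind hyaluronan in the secondary palate of mouse embryos. They are 9 genes chosen by name: the synthases Has1, Has2 and Has3, the degrading enzymes Hyal1, Hyal2 and Cemip, and the binders Cd44, Vcan and Tnfaip6. All 9 were found among the 56691 gene identifiers of the deposited tables, and 8 of them, all but Has1, had enough counts to be tested. The palate was taken from C57BL/6J mice at E14.0, with no genetic change or treatment named in the labels. The front end of the palatal shelves (anterior palate, 3 libraries) and the rear end (posterior palate, 3 libraries) were microdissected and profiled by bulk RNA-seq. The labels do not say whether a library holds 1 embryo or a pool, so p-values measure the spread between these libraries.

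Hyaluronan is a very long, unbranched sugar polymer of the extracellular matrix. The synthases build it at the cell membrane from UDP-glucuronic acid and UDP-N-acetylglucosamine and push the growing chain out of the cell, where it binds large amounts of water. In the palate, hyaluronan-rich matrix swells the shelves around the time they lift above the tongue. Hyal2 at the cell surface and Hyal1 in the lysosome cut the chain, Cemip (also known as HYBID) binds hyaluronan and promotes its depolymerization, and Cd44, versican (Vcan) and Tnfaip6 (TSG-6) are respectively a cell surface receptor, a large matrix proteoglycan and a secreted protein that hold on to it.

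The depth of the libraries was 11378736 to 15172733 counts on genes. A gene with 0 counts could have a level of up to 0.198 to 0.264 CPM (3 counts, counting error only). This limit is 3 counts over the total of each library, without the normalization used for the other CPM. Posterior replicates 2 and 3 stood apart from the other 4 libraries. Their shares of multimapping reads, 6.12% and 5.94%, were below the 8.45% to 8.77% of the others, as were their mitochondrial shares of counts, 0.973% and 1.14% against 2.70% to 2.97%. Both are posterior, so many results below are also given by the value of posterior replicate 1, which was like the anterior libraries in these measures. A fit that also held a factor setting posterior replicates 2 and 3 against the other libraries was used as well (the library-group term). Its region difference rests on posterior replicate 1 alone, set against the anterior libraries. It thus restates that library's own ratio, and its calls rest on 1 posterior library. Known regional genes followed the labels, with the anterior genes Shox2, Msx1 and Alx1 (3 of 3) called higher in the anterior palate and the posterior genes Meox2, Tbx22 and Barx1 (3 of 3) in the posterior palate. The mesenchymal markers Prrx1, Twist1, Osr2, Pdgfra, Col1a1 and Col3a1 were detected in every library. In bulk tissue, fewer cells of a type and less RNA per cell cannot be told apart.

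Over all 15673 genes tested, a gene was called where edgeR's quasi-likelihood test gave an adjusted p below 0.05, and log2 fold changes are posterior over anterior, given with their standard errors (SE). Of the 8 hyaluronan genes tested, 3 were called: Cemip was higher in the posterior palate, and Cd44 and Has3 were higher in the anterior palate. Over all genes tested, 7.46% were called, 4.87% higher in the posterior and 2.59% higher in the anterior palate. The median log2 fold change of the 8 genes was 0.19, against -0.0040 for all genes tested. Each role thus held a gene that was called and a gene that was not. For 4 of the 8 genes, anterior and posterior CPM did not overlap, against 28.0% of all genes tested, and for such genes the two-sided exact permutation test gives p = 0.1, the smallest that 3 libraries against 3 allow.

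**Figure D1:**
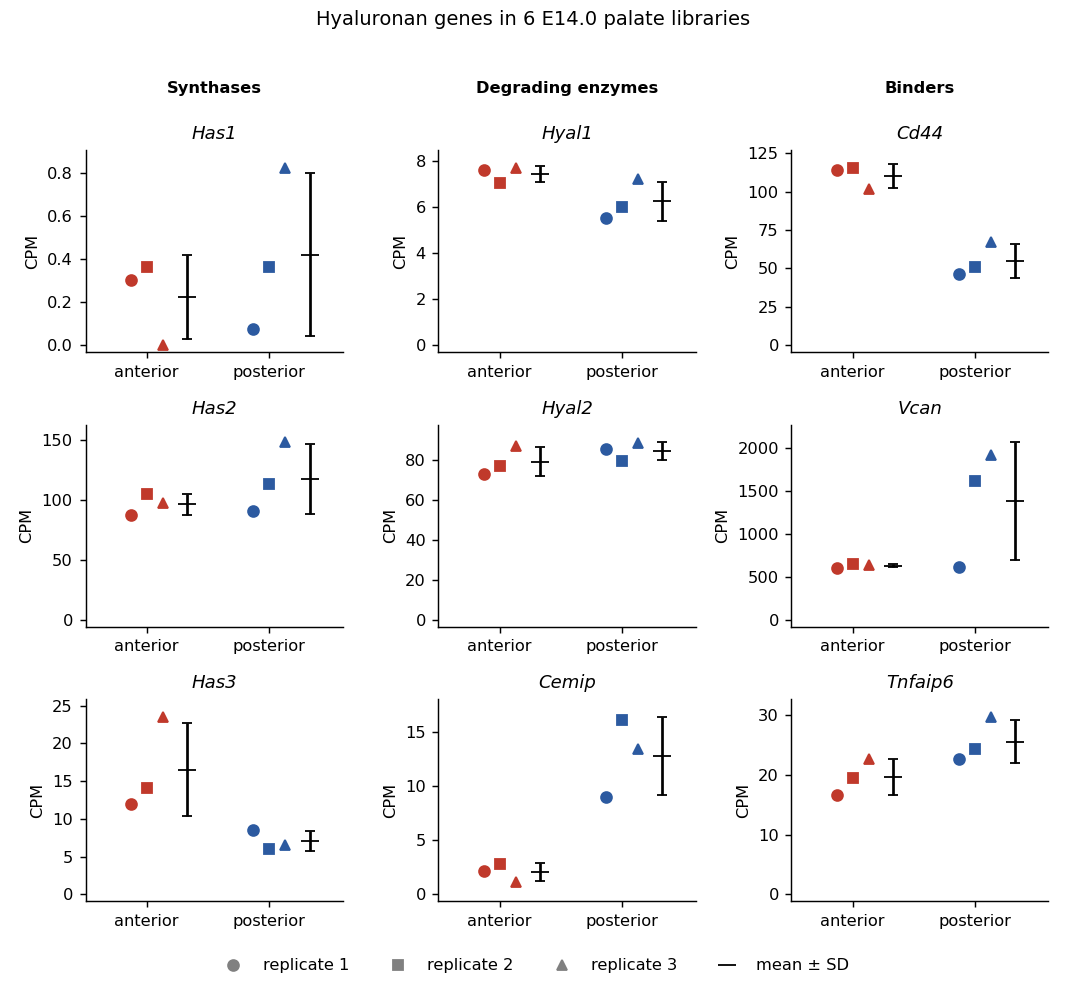
CPM of each of the 9 genes (vertical axis, linear, CPM) in the 3 anterior (red) and 3 posterior (blue) libraries, with marker shape for the replicate and a black bar for the mean ± SD (n = 3). Cemip, Cd44 and Has3 show no overlap between the regions, Tnfaip6 parts by a margin too small to see, Vcan is high in posterior replicates 2 and 3 only, and Hyal2 is nearly level.

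The sequences just upstream of Cemip, Cd44 and Vcan are shown because these genes went opposite ways or parted the posterior libraries. They are the 250 bases before the RefSeq transcription start (GRCm38.p6), read 5′ to 3′ along the gene's strand, the minus strand for all 3. RefSeq promoters were matched for 7 of the 9 genes, the others being Has2 and Has3. Capitals mark TATAAA (the TATA box), CCAAT (the CCAAT box) or GGGCGG (the GC box), on either strand.
Cemip chr7:84086506-84086755: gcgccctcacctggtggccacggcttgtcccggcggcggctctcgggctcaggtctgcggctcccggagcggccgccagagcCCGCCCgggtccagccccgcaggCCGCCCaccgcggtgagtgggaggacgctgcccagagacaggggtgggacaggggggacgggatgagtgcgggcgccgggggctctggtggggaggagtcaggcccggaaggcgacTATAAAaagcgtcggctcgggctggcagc
Cd44 chr2:102901666-102901915: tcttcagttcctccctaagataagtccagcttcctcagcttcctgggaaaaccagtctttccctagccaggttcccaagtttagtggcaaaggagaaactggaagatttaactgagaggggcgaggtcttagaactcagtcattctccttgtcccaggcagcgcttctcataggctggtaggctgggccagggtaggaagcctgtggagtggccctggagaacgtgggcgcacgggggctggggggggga
Vcan chr13:89742513-89742762: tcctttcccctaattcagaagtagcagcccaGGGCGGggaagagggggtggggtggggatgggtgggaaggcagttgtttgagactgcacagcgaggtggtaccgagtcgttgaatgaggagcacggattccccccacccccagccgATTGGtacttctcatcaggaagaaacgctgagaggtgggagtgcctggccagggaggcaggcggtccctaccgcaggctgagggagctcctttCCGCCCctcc
The Cemip window was 75.2% G and C with 26 CpG dinucleotides, and held a TATA box that began 29 bases before the start and 2 GC boxes. The Cd44 window was 56.4% G and C with 5 CpG dinucleotides and held none of the 3 motifs. The Vcan window was 62.4% G and C with 10 CpG dinucleotides and held 2 GC boxes, the nearer beginning 10 bases before the start, and 1 CCAAT box. Among 32851 RefSeq promoters of the same length, TATAAA was in 12.4%, CCAAT in 33.8% and GGGCGG in 32.7%. TAATTA, a core letter string of homeodomain factors, and CACGTG, a form of the E-box, were in 4.84% and 6.02% of all promoters and in none of these 3 windows. A match is a description of letters and was not tested for binding.

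The synthases were set apart first by their levels. Has2 (ENSMUSG00000022367.7, chr15:56665627-56694539 of GRCm38), the main synthase of the embryo, had 87.2, 105 and 96.9 CPM in anterior replicates 1, 2 and 3. In posterior replicates 1, 2 and 3 it had 90.4, 113 and 148 CPM. The regions overlapped, since posterior replicate 1 lay between anterior replicates 1 and 3. The 95% intervals here and below use 4 residual degrees of freedom. They are wider than edgeR's test implies, because that test adds degrees of freedom from all genes. The log2 fold change of Has2 was 0.28 (SE 0.18, adjusted p = 0.346), with a 95% interval from -0.21 to 0.78. It was called without posterior replicate 1 (log2 fold change 0.44, adjusted p = 0.0173), a fit in which 46.6% of all genes were called, and was -0.09 with the library-group term.

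Has3 (ENSMUSG00000031910.14, chr8:106870242-106884566), a synthase of the same family, had 11.9, 14.1 and 23.5 CPM in the anterior replicates. The posterior replicates had 8.53, 6.07 and 6.51 CPM. Every anterior library was above every posterior library, and anterior replicate 3 was the highest. Has3 was 2.34-fold higher in the anterior palate (log2 fold change -1.23, SE 0.28, adjusted p = 0.0413). This call was close to the threshold. It was lost without anterior replicate 2 (-1.33, adjusted p = 0.0975), anterior replicate 3 (-0.89, adjusted p = 0.0837), posterior replicate 2 (-1.13, adjusted p = 0.143) or posterior replicate 3 (-1.17, adjusted p = 0.126). It was also lost with limma-voom (-1.17, adjusted p = 0.0570) and with replicate number as a further factor (the replicate block, -1.19, adjusted p = 0.0681). The same held for the block with a correction for transcript length (-1.28, adjusted p = 0.0724). With the library-group term the log2 fold change was -0.95. The 8 epithelial markers, given beside Has3, had a summed level of 1620 to 1715 CPM in the anterior and 1116 to 1855 CPM in the posterior libraries. Of the 8, 0 were called by edgeR (1 at an unadjusted p below 0.05, 1 by DESeq2, 0 by limma-voom, 1 with the length correction). Only 2 did not overlap between the regions, Krt18 and Krt5, both higher in the anterior. Krt5 had 304, 332 and 388 CPM in the anterior and 251, 129 and 156 CPM in the posterior replicates (log2 fold change -0.93, adjusted p = 0.0616 from edgeR). The summed level of the 4 dental mesenchyme markers was highest in anterior replicate 3, as was Has3, although Ambn by itself was lowest there among the anterior libraries, and the sums were 92.9, 145 and 327 CPM in the anterior and 129, 99.8 and 125.4 CPM in the posterior replicates. Of the 4, 1 was called (Ambn, higher in the anterior palate). Ambn is not among the dental mesenchyme genes that the paper names (Dlx2, Sostdc1 and Tfap2b), and none of those was called. The part of these cells in the Has3 difference was not tested.

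Has1 (ENSMUSG00000003665.7, chr17:17843323-17855205), the remaining synthase, had 4, 5 and 0 counts in the anterior and 1, 5 and 12 counts in the posterior replicates. These were too few to test, with 4 of the 6 libraries at 5 counts or fewer and above 0, so no difference was detectable at this depth and no fold is given. Per length of exon, Has2 made up 86.1% to 91.5% of the summed synthase level in the anterior libraries and 94.0% to 96.7% in the posterior libraries. Has3 made up 8.19% to 13.9% in the anterior and 2.83% to 5.90% in the posterior libraries, so the ranges of the regions did not overlap. The Has2 level was 6.20 to 11.2 times that of Has3 in the anterior and 15.9 to 34.2 times in the posterior libraries.

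Among the degrading enzymes, Cemip (ENSMUSG00000052353.13, chr7:83932857-84086502) differed most. It had 2.20, 2.84 and 1.12 CPM in the anterior replicates, from 29, 39 and 13 counts. The posterior replicates had 8.98, 16.1 and 13.4 CPM, from 120, 223 and 196 counts. The lowest posterior library was thus above the highest anterior library, and posterior replicate 1 was the lowest of the posterior palate. Cemip was 6.17-fold higher in the posterior palate (log2 fold change 2.62, SE 0.35, adjusted p = 0.00485). It was called under all 17 alternatives, with log2 fold changes from 2.10 with the library-group term to 2.93 without anterior replicate 2. In posterior replicate 1 alone, the log2 ratio to the anterior mean was 2.13.

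Markers of skeletal muscle moved with this difference, and those of chondrocytes did so only in part. The 9 skeletal muscle markers had a summed level of 11.6 to 15.7 CPM in the anterior and 611 to 1069 CPM in the posterior libraries, with 9 of 9 called and a median log2 fold change of 6.30. The 7 chondrocyte markers had 181 to 274 CPM in the anterior and 524 to 776 CPM in the posterior libraries, with 2 of the 6 tested called (Col2a1 and Col9a1). The rise of this sum was mostly Col2a1, with 67.7 to 101 CPM in the anterior and 398 to 573 CPM in the posterior libraries. Sox9 and Col11a2 overlapped between the regions, and the log2 fold change of Col11a2 was -0.46. None of the muscle markers was at 0 in every anterior library, and Myod1 had 1 to 2 counts there. The part of these cells in the Cemip difference was not tested.

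Hyal2 (ENSMUSG00000010047.12, chr9:107567945-107572779) was the most abundant degrading enzyme and the most even. It had 72.8, 76.8 and 86.9 CPM in the anterior and 85.2, 79.4 and 88.0 CPM in the posterior replicates, which overlap. Its log2 fold change was 0.10 (SE 0.10, adjusted p = 0.563), with a 95% interval from -0.18 to 0.38. Hyal1 (ENSMUSG00000010051.15, chr9:107576927-107581710), its neighbour on the same chromosome, had 7.59, 7.05 and 7.70 CPM in the anterior replicates. It had 5.54, 6.00 and 7.20 CPM in the posterior replicates, where only replicate 3 reached the anterior range, and its log2 fold change was -0.25 (SE 0.17, adjusted p = 0.375), with a 95% interval from -0.72 to 0.22. The exons of Hyal1 share 2079 bases with Naa80 and Hyal3 on the same strand, so reads from the shared stretch could be left out or split and the level of Hyal1 is uncertain. Neither gene was called under any of the 17 alternatives.

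Per length of exon, Hyal2 made up 89.2% to 92.5% of the summed level of the 3 degrading enzymes over the 6 libraries. Cemip made up 0.323% to 0.912% in the anterior and 2.62% to 4.88% in the posterior libraries. The Hyal2 level was 100.6 to 287 times that of Cemip in the anterior and 18.3 to 35.2 times in the posterior libraries. These ratios depend on the length used. Over the 6 libraries the means were 24.8 CPM per kb of exon for Hyal2 and 0.609 for Cemip, and 27.5 and 1.05 per kb of the longest transcript. The large fold change of Cemip was thus one between low levels.

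**Figure D2:**
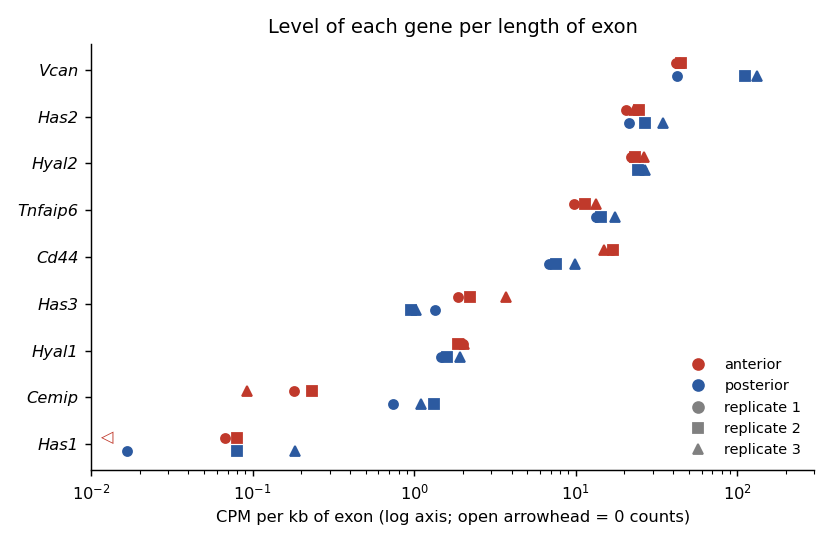
Level of each of the 9 genes in CPM per kb of exon (horizontal axis, log scale) in the anterior (red) and posterior (blue) libraries, with genes ordered from the highest mean (Vcan, 69.5) to the lowest (Has1, 0.0710). The regions separate for Cemip, Cd44 and Has3 and nearly touch for Tnfaip6, and posterior replicate 1 sits with the anterior libraries for Vcan.

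Among the binders, Cd44 (ENSMUSG00000005087.17, chr2:102811141-102901665) had 114, 115 and 101 CPM in the anterior replicates. The posterior replicates had 46.5, 50.9 and 67.4 CPM, so the regions did not overlap. Cd44 was 2.01-fold higher in the anterior palate (log2 fold change -1.01, SE 0.15, adjusted p = 0.00721). It was called under all 17 alternatives, with log2 fold changes from -1.25 with the library-group term to -0.90 without posterior replicate 1. The log2 ratio of posterior replicate 1 to the anterior mean was -1.25, further from 0 than in replicates 2 and 3 (-1.12 and -0.71). Cd44 is also carried by blood cells, and the 7 myeloid markers had a summed level of 85.5 to 101 CPM in the anterior and 96.1 to 116 CPM in the posterior libraries, with 0 of 7 called by edgeR (2 at an unadjusted p below 0.05, 0 by DESeq2, 0 by limma-voom). The 6 osteoblast markers had 1968 to 3552 CPM in the anterior and 295 to 1821 CPM in the posterior libraries, with 0 of the 5 tested called by edgeR (3 at an unadjusted p below 0.05, 3 by DESeq2, 0 by limma-voom, 4 with the library-group term). Their part in the Cd44 difference was not tested.

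Vcan (ENSMUSG00000021614.16, chr13:89655312-89742509) was the most abundant of the 9 genes. It had 606, 646 and 637 CPM in the anterior replicates. In posterior replicates 1, 2 and 3 it had 613, 1615 and 1913 CPM. Posterior replicate 1 lay within the anterior range, whereas replicates 2 and 3 were far above it. The log2 fold change of 1.13 (SE 0.37) had an adjusted p of 0.114 from edgeR, 0.0113 from edgeR with no filter on low counts and 0.00925 from DESeq2. It was 1.49 without posterior replicate 1 (adjusted p = 1.31e-05) and -0.04 with the library-group term, which rests on posterior replicate 1. With a correction for transcript length it was 0.71 (adjusted p = 0.121). Vcan has the longest exons of the 9 genes, 14462 bases, and whether the high values follow the posterior palate or these libraries cannot be told apart.

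Tnfaip6 (ENSMUSG00000053475.5, chr2:52038009-52056686) had 16.6, 19.6 and 22.8 CPM in the anterior replicates. The posterior replicates had 22.8, 24.3 and 29.8 CPM, so that anterior replicate 3 and posterior replicate 1 nearly touched. The log2 fold change of 0.38 (SE 0.16, adjusted p = 0.188) was not called. Its unadjusted p from edgeR was 0.0450, although its wider 95% interval, from -0.06 to 0.83, held 0. Tnfaip6 was called without posterior replicate 1 (0.46, adjusted p = 0.0360). Relative to Cd44, the Vcan level per length was 2.49 to 2.94 times as high in the anterior libraries, 6.18 times in posterior replicate 1, and 14.9 and 13.3 times in posterior replicates 2 and 3.

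Levels between genes were compared per kb of exon. Over the 6 libraries the mean was 69.5 CPM per kb for Vcan, 25.2 for Has2, 24.8 for Hyal2, 13.2 for Tnfaip6, 12.2 for Cd44, 1.85 for Has3, 1.81 for Hyal1, 0.609 for Cemip and 0.0710 for Has1. Of the neighbours in this order, Has2 and Hyal2, Tnfaip6 and Cd44, Has3 and Hyal1, and Cemip and Has1 overlapped in their ranges over the libraries. Vcan lay above 96.2% and Has2 above 86.7% of all genes tested, while Cemip lay above 10.9%. With the longest transcript in place of all exons, the first 3 of these pairs swapped places, and 6 genes thus changed rank. In the anterior palate Cd44 (16.3 CPM per kb) lay above Tnfaip6 (11.5), and in the posterior palate it lay below it (8.10 against 15.0). Cemip (1.05) was at about the level of Has3 (1.10) in the posterior palate, whereas in the anterior palate they were at 0.168 and 2.59. This near equality depends on the length used. All exons against the longest transcript are 12232 against 7111 bases for Cemip and 6380 against 5912 for Has3, so the longest transcript would raise Cemip more.

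Around the 9 genes, 46 genes of the same pathway were examined in 6 lists, of which 32 could be tested. Of these, 6 were called higher in the posterior palate and 1 in the anterior palate, where 4.87% and 2.59% of all genes tested were called.

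Of the 10 genes that supply the UDP-sugars, 0 were called by edgeR (4 at an unadjusted p below 0.05, 2 by DESeq2, 0 by limma-voom), and their median log2 fold change was -0.08. Ugp2, which makes UDP-glucose and had the highest mean level per kb of the list over the 6 libraries (44.2 CPM per kb, against 43.1 for Gpi1, which lay above it in the anterior libraries), had 137, 139 and 138 CPM in the anterior and 130.3, 133 and 137 CPM in the posterior replicates. Its log2 fold change was -0.05 (SE 0.08, adjusted p = 0.692). The genes nearest to the threshold were Gfpt1, which starts the hexosamine pathway toward UDP-N-acetylglucosamine, with a log2 fold change of 0.43 (SE 0.11, adjusted p = 0.0619), and Gpi1 of glycolysis, with one of -0.38 (SE 0.10, adjusted p = 0.0621), both named after their values were seen. With the library-group term these were 0.21 and -0.28. Both were called by DESeq2 (adjusted p = 0.0136 and 0.00844) and without posterior replicate 1 (adjusted p = 0.000225 and 0.00174). With the length correction Gpi1 was called (-0.47, adjusted p = 0.0432) and Gfpt1 was not (0.20, adjusted p = 0.135).

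Of the other 8 genes of hyaluronan breakdown, Hyal4, Hyal5, Hyal6 and Spam1 had 0 counts in all 6 libraries. Of the 4 tested, 0 were called by edgeR (2 at an unadjusted p below 0.05, 0 by DESeq2, 0 by limma-voom), with a median log2 fold change of 0.28. The lysosomal Hexa, which trims hyaluronan fragments and had the highest level per kb, had 72.5, 76.3 and 72.7 CPM in the anterior and 82.5, 86.3 and 93.4 CPM in the posterior replicates (log2 fold change 0.24, adjusted p = 0.148 from edgeR). Cemip2, the membrane relative of Cemip, had 109, 108 and 105 CPM in the anterior and 96.0, 166 and 166 CPM in the posterior replicates, so posterior replicate 1 was the lowest of the 6 libraries. It was not called (log2 fold change 0.41, SE 0.20, adjusted p = 0.251), and was named after its values were seen. Per length of exon, its mean level of 14.7 CPM per kb was well above the 0.609 of Cemip.

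Of the 8 other receptors, 6 could be tested and 0 were called by edgeR (3 at an unadjusted p below 0.05, 1 by DESeq2, 0 by limma-voom), with a median log2 fold change of 0.55. Hmmr, which binds hyaluronan and the mitotic spindle and had the highest level per kb, had a log2 fold change of 0.12 (SE 0.14, adjusted p = 0.606). Lyve1 and Stab1, receptors of lymphatic and other endothelium and of macrophages, were named after their values were seen. Lyve1 had 3.11, 2.47 and 1.64 CPM in the anterior and 3.07, 4.12 and 6.10 CPM in the posterior replicates (log2 fold change 0.87, adjusted p = 0.168 from edgeR). Stab1 had 53.9, 53.2 and 44.2 CPM in the anterior and 51.3, 107 and 115 CPM in the posterior replicates (log2 fold change 0.85, adjusted p = 0.119), the same split of the posterior libraries as Vcan. It was 0.021 with the library-group term, and was called by DESeq2 (adjusted p = 0.0268), with no filter on low counts (adjusted p = 0.0194) and without posterior replicate 1 (1.13, adjusted p = 6.67e-05). The lymphatic markers Flt4 and Ccl21a were called higher in the posterior palate, Prox1 and Lyve1 were not, and the summed level of the 4 was 49.8 to 54.3 CPM in the anterior and 75.5 to 112 CPM in the posterior libraries.

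Of the hyaluronan-binding proteoglycans related to versican and of the link proteins that lock them to the chain, 4 of 7 were tested and 1 was called, against 7.46% of all genes tested. Hapln1, the cartilage link protein, had 20.5, 22.8 and 20.8 CPM in the anterior and 32.2, 49.9 and 42.0 CPM in the posterior replicates, with no overlap. It was 1.94-fold higher in the posterior palate (log2 fold change 0.95, SE 0.17, adjusted p = 0.0147). The call was lost without anterior replicate 1 (0.93, adjusted p = 0.0760), 2 (1.00, adjusted p = 0.0616) or 3 (0.93, adjusted p = 0.0683). With the library-group term the log2 fold change of Hapln1 was 0.59. Acan (aggrecan, the cartilage proteoglycan) had 2.66, 1.96 and 3.55 CPM in the anterior and 3.82, 10.2 and 13.2 CPM in the posterior replicates and was not called (log2 fold change 1.75, SE 0.46, adjusted p = 0.0658), but was by DESeq2 (adjusted p = 0.00323), with no filter on low counts (adjusted p = 0.00478) and without posterior replicate 1 (adjusted p = 0.000385). With the library-group term its log2 fold change was 0.50. Hapln3, another link protein, was not called and its log2 fold change was negative, with 3.87, 3.71 and 4.59 CPM in the anterior and 2.47, 2.31 and 3.43 CPM in the posterior replicates (log2 fold change -0.56, SE 0.24, adjusted p = 0.197), and was named after its values were seen. Of the chondrocyte markers, whose list holds Acan itself, Col2a1 and Col9a1 were called higher in the posterior palate, Sox9, Col11a2, Comp and Acan were not called, and Matn1 was too low to test. Col2a1 had 67.7 to 101 CPM in the anterior and 398 to 573 CPM in the posterior libraries, whereas Col11a2 had 52.7 to 102 CPM in the anterior and 6.21, 22.3 and 133 CPM in the posterior replicates. The part of these cells in the values of Hapln1 and Acan was not tested.

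Among the genes of heavy chain transfer, by which Tnfaip6 couples protein chains of the inter-alpha-inhibitor family to hyaluronan, 5 of 7 were too low to test. Both of the others were called, in opposite directions, against 4.87% of all genes tested in the posterior and 2.59% in the anterior direction. Itih5, a heavy chain gene, had 4.25, 4.51 and 6.84 CPM in the anterior and 10.9, 21.1 and 20.6 CPM in the posterior replicates (log2 fold change 1.76, SE 0.31, adjusted p = 0.0142). The call of Itih5 was lost without anterior replicate 1 (1.64, adjusted p = 0.0723), anterior replicate 2 (1.67, adjusted p = 0.0775) or posterior replicate 2 (1.61, adjusted p = 0.0531). With the library-group term its log2 fold change was 1.08, and posterior replicate 1 was the lowest posterior library. The part of the muscle and chondrocyte cells, whose marker levels are given beside Cemip, was not tested. Ptx3, a pentraxin that binds Tnfaip6 and helps to cross-link the chains, had 35.2, 33.7 and 29.5 CPM in the anterior and 14.4, 21.5 and 19.7 CPM in the posterior replicates (log2 fold change -0.82, SE 0.16, adjusted p = 0.0250). The call of Ptx3 was lost without anterior replicate 1 (-0.77, adjusted p = 0.112), anterior replicate 2 (-0.80, adjusted p = 0.111), anterior replicate 3 (-0.89, adjusted p = 0.0573) or posterior replicate 3 (-0.87, adjusted p = 0.0589). It was also lost with the length correction (-0.71, adjusted p = 0.0612), the replicate block (-0.84, adjusted p = 0.0522) and both together (-0.74, adjusted p = 0.102). For neither gene did the regions overlap.

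**Figure D3:**
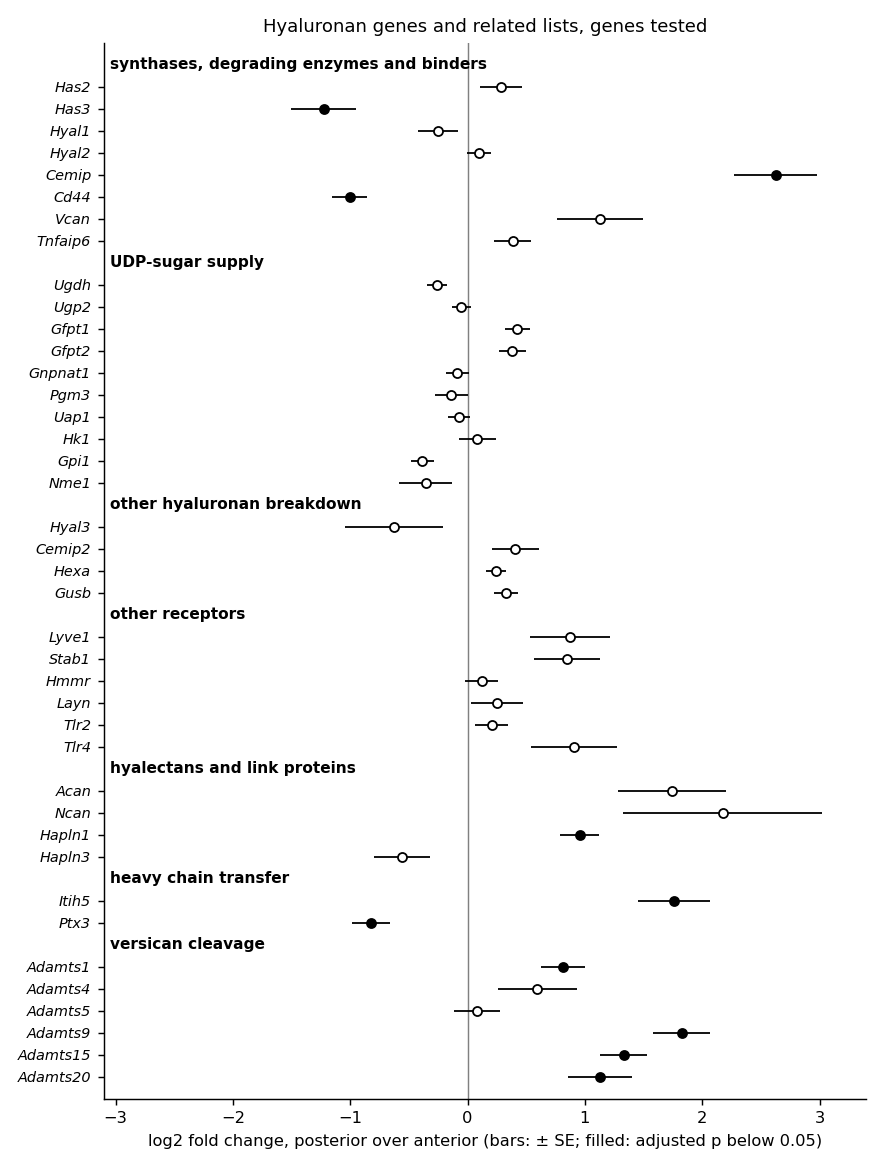
Log2 fold change, posterior over anterior (horizontal axis), with its SE for the 8 hyaluronan genes and the 32 other pathway genes tested, grouped by list. Filled points mark the 3 and 7 genes called, and 4 of the 6 versican-cleaving proteases are filled to the right of 0.

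Of the 6 proteases that cleave versican, 4 were called higher in the posterior palate and 0 higher in the anterior palate, against 4.87% and 2.59% of all genes tested, and their median log2 fold change was 0.97. Adamts9, a secreted metalloprotease of the group, had 30.1, 34.0 and 33.1 CPM in the anterior replicates. The posterior replicates had 72.8, 127 and 144 CPM, and none of them came near the anterior range. Adamts9 was 3.54-fold higher in the posterior palate (log2 fold change 1.82, SE 0.24, adjusted p = 0.00456). Adamts15 had 15.3, 15.6 and 17.8 CPM in the anterior and 29.0, 46.0 and 47.3 CPM in the posterior replicates, a 2.51-fold difference (log2 fold change 1.33, SE 0.20, adjusted p = 0.00729). Both were called under all 17 alternatives, with log2 fold changes from 1.17 to 2.07 for Adamts9 and from 0.84 to 1.52 for Adamts15, the lowest with the library-group term. In posterior replicate 1, in which Vcan was at the anterior level (log2 ratio to the anterior mean -0.04), the log2 ratio was 1.17 for Adamts9 and 0.84 for Adamts15.

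Adamts1, which had the highest level per kb of the group, and Adamts20, a relative of Adamts9, were called closer to the threshold. Adamts1 had 38.5, 41.4 and 45.7 CPM in the anterior and 55.1, 72.0 and 93.8 CPM in the posterior replicates (log2 fold change 0.82, SE 0.19, adjusted p = 0.0442). Adamts20 had 8.88, 9.82 and 10.6 CPM in the anterior and 12.9, 23.1 and 27.8 CPM in the posterior replicates (log2 fold change 1.13, SE 0.27, adjusted p = 0.0497). Neither overlapped between the regions. With the library-group term both log2 fold changes were 0.40. Both calls were lost with limma-voom (0.79, adjusted p = 0.0569 and 1.07, adjusted p = 0.0887), so that 2 of the 6 proteases were called in that fit. They were also lost without any 1 of the anterior replicates or posterior replicates 2 and 3, with log2 fold changes from 0.60 to 0.88 for Adamts1 and from 0.89 to 1.19 for Adamts20. Without posterior replicate 1 both were called (0.99 and 1.39). The call of Adamts20 was lost as well with the filter on every library (adjusted p = 0.0555), library size only (adjusted p = 0.0509) and unstranded counts (adjusted p = 0.0526). Adamts4 and Adamts5, named after their values were seen, were not called (log2 fold changes 0.60 and 0.08, adjusted p = 0.307 and 0.807). The median of the list lies between Adamts1 and Adamts20. The 9 skeletal muscle markers were also higher in the posterior libraries (9 of 9 called, 11.6 to 15.7 against 611 to 1069 CPM summed). So was the sum of the 7 chondrocyte markers (2 of 6 tested called, 181 to 274 against 524 to 776 CPM), mostly through Col2a1. The part of these cells in the values of these proteases was not tested.

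**Figure D4:**
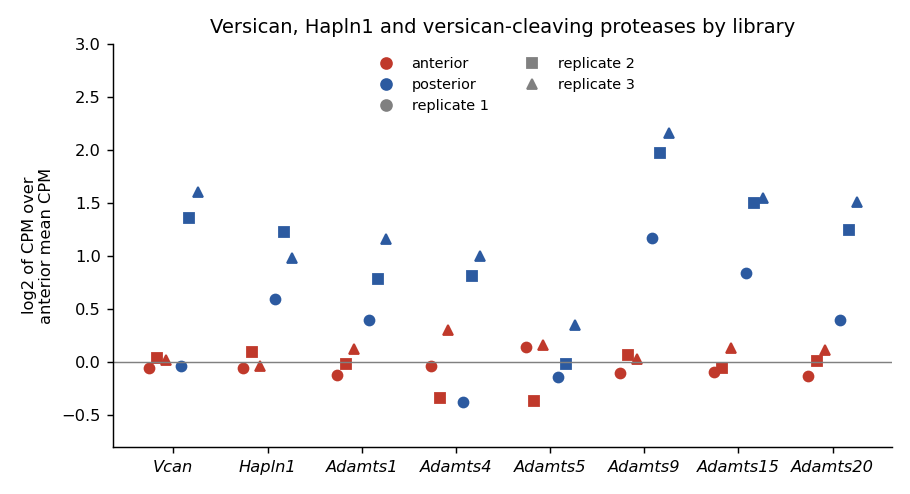
Log2 of CPM over the anterior mean CPM (vertical axis) of Vcan, Hapln1 and the 6 versican-cleaving proteases in the 3 anterior (red) and 3 posterior (blue) libraries, with marker shape for the replicate. Vcan, Adamts4 and Adamts5 of posterior replicate 1 lie at or under the anterior mean, whereas its Adamts9 (1.17) and Adamts15 (0.84) lie above it.

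Across the 9 genes, then, the fits differed in which genes they called. With the library-group term 2 were called (Cemip and Cd44) against 7.61% of all genes, with limma-voom the same 2 against 6.85%, with the correction for transcript length 3 (Cemip, Cd44 and Has3) against 8.65%, and with DESeq2 4 (those 3 and Vcan) against 12.6%. Without posterior replicate 1, 6 were called against 46.6% of all genes. Cemip and Cd44 were in every one of these counts.

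**Figure D5:**
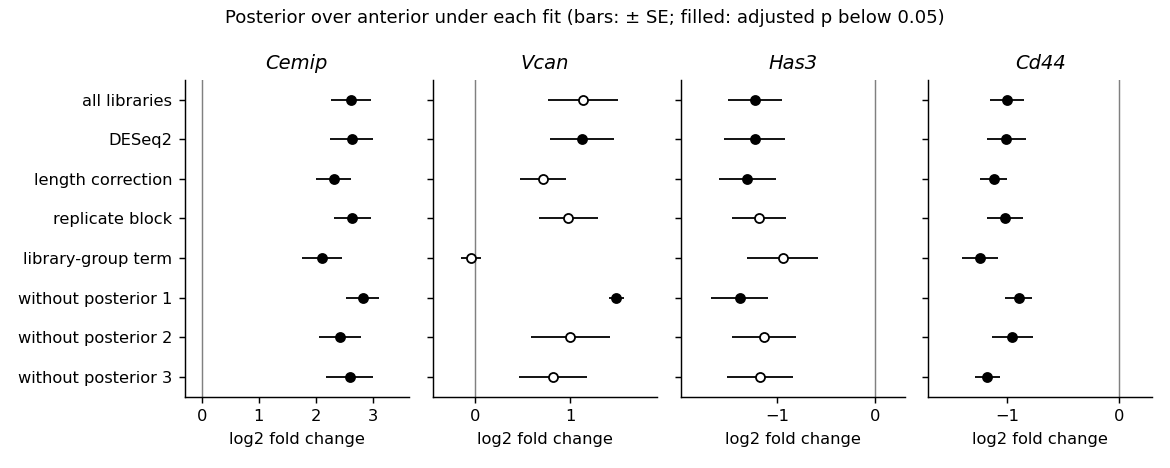
Log2 fold change, posterior over anterior (horizontal axes, a scale for each gene), with its SE for Cemip, Vcan, Has3 and Cd44 under 8 fits, filled where the adjusted p was below 0.05. Cemip and Cd44 are filled throughout, and Vcan moves from -0.04 with the library-group term to 1.49 without posterior replicate 1.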

How the data were processed

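For each of the 6 libraries, a table of read counts per Ensembl gene was deposited, unstranded and by strand, with no normalization. The methods name HISAT2 on mm10, StringTie and DESeq2 1.30.1; the layout is that of STAR's gene counts, and the annotation version is not given in the sources used here. Reverse-stranded counts were used. Symbols, positions and exon lengths came from GENCODE M21 (GRCm38), by identifier without version (52073 of 56691 matched). A gene entered the test if 3 or more libraries held 10 or more counts of it. The test was that of edgeR 4.0.16 under R 4.3.3 (TMM, quasi-likelihood test, Benjamini-Hochberg, region as the only term). The SE is the log2 fold change over the root of its F value. CPM are TMM-normalized. Alternatives were DESeq2 1.42.0, limma-voom (limma 3.58.1), RLE, library size only, no filter, at least 10 counts in every library, unstranded counts, replicate block, length correction (a loess of each library's log ratio on exon length), both of these, library-group term, and leaving out each replicate. The fits were also run on simulated counts with 1 fixed dispersion and no split among the posterior libraries. These differ from the data in that respect, so the run does not show how the fits handle that split. No 2 replicates were alike within sampling noise (chi-square per gene 3.44 to 67.5). The genes, lists and tests were chosen with earlier results of these data known. Named were the 9 genes, the called genes and the gene with the highest level per kb of each pathway list, markers, and the 3 genes nearest in profile to Has2 and to Vcan; all others, among them Ncan, Adamts4 and Adamts5, were named after their values were seen. The pathway and marker lists were written by hand, and 1 gene of the breakdown list is not reported here.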

Additional observations from a re-analysis of the deposited data

How the results depend on the processing

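Under all 17 alternatives Cemip and Cd44 stayed called in the same direction, as did Adamts9 and Adamts15, and Hyal1 and Hyal2 stayed uncalled. When 1 replicate was left out, the calls went from 3 to between 2 and 6 among the 8 hyaluronan genes tested, from 7 to between 2 and 22 among the 32 other pathway genes tested, and from 24 to between 18 and 45 among the markers, the highest each time in the fit lacking posterior replicate 1. The count over all genes, 1169, was 1978 with DESeq2 (637 higher in the anterior, 1341 in the posterior palate), 2162 with no filter on low counts (646 and 1516), and between 528 and 7309 when 1 replicate was left out, with 7309 (3316 and 3993) in the fit lacking posterior replicate 1. DESeq2 called 11 of the other pathway genes. With the longest transcript, 6 of the 9 genes changed rank. The cause of these shifts was not tested, and fewer samples entered the fits without a replicate.

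With the library-group term, log2 fold changes reversed to -0.091 for Has2, -0.038 for Vcan, -0.17 for Hk1, 0.076 for Nme1, -0.16 for Cemip2, -0.17 for Hmmr, -0.061 for Layn, -0.054 for Tlr4, -0.37 for Adamts4 and -0.14 for Adamts5. With the length correction they reversed to 0.024 for Ugp2, -0.093 for Hk1 and -0.17 for Adamts5, and with the replicate block as well to 0.022, -0.088 and -0.16. When 1 replicate was left out, the range was -0.043 to 0.21 for Hk1, -0.012 to 0.25 for Hmmr and -0.077 to 0.18 for Adamts5. None of these genes was called in the test of the report, though Vcan was with no filter on low counts (adjusted p = 0.0113) and by DESeq2 (adjusted p = 0.00925), and Vcan, Has2, Nme1, Cemip2, Hmmr, Tlr4 and Adamts4 were without posterior replicate 1 (adjusted p from 1.31e-05 for Vcan to 0.0471 for Hmmr). The cause was not tested. Over the 32 other pathway genes and all alternatives, 471 values kept their direction and side of the threshold, 30 lost a call, 23 gained one and 18 reversed, in 24 genes.

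The labels number the replicates of both regions alike, and whether same-numbered libraries come from the same embryos is not given. The deviations of same-numbered libraries from their group means correlated at -0.053, 0.045 and 0.036. Not every library correlated best with its own number. With 3 libraries per region, and posterior replicates 2 and 3 set apart from replicate 1, this cannot tell whether the libraries are paired. A replicate block gave 829 calls (237 higher in the anterior, 592 in the posterior palate) and 2 hyaluronan genes, with log2 fold changes of 2.64 for Cemip (adjusted p = 0.00753 from edgeR), -1.02 for Cd44 (adjusted p = 0.0210), -1.19 for Has3 (adjusted p = 0.0681) and 0.98 for Vcan (adjusted p = 0.146), and Ptx3 was no longer called (-0.84, adjusted p = 0.0522). With block and length correction together, Has3 had an adjusted p of 0.0724 and Ptx3 one of 0.102. Depth limits Has1, Ncan and the heavy chain genes other than Itih5, which are near the limit of 3 counts in some libraries.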

Other observations

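Ncan, the versican relative of nervous tissue, had 0.531, 0.800 and 0.433 CPM in anterior replicates 1, 2 and 3 and 0.898, 6.29 and 0.960 CPM in posterior replicates 1, 2 and 3, from 87 counts in posterior replicate 2 against 5 to 14 in the other libraries. The 5 neuronal markers (Tubb3, Elavl3, Elavl4, Stmn2 and Snap25) were also highest in that library, with a summed level of 239 CPM against 16.4 to 39.4 CPM in the other 5 libraries. The log2 fold change of Ncan was 2.17 (SE 0.85, adjusted p = 0.166 from edgeR), and 0.64 without posterior replicate 2. Ncan was called with no filter on low counts (adjusted p = 0.0474) and without posterior replicate 1 (adjusted p = 0.0226), and was named after its values were seen. The part of nervous tissue in these values was not tested.

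The genes most like Has2 and Vcan over the 6 libraries were sought among the 11528 genes that held 50 or more counts in each library, by the root mean square difference of log2 CPM after each gene was centred on its own mean. Nearest to Has2 were Mbd4 (0.0431), Zfp53 (0.0548) and Tpcn2 (0.0602). Nearest to Vcan were Jmjd1c (0.0502), Lmbrd2 (0.0563) and Etnk1 (0.0601). Jmjd1c had 49.0, 49.0 and 49.5 CPM in the anterior and 52.0, 127 and 151 CPM in the posterior replicates, so it shared with Vcan the anterior level in posterior replicate 1 and the high level in replicates 2 and 3. These are descriptions over 6 libraries, of which posterior replicates 2 and 3 stood apart.

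Of the remaining marker lists, 0 of 7 endothelial, 0 of 5 erythroid, 0 of 5 glial and 0 of 4 tested neuronal markers were called by edgeR (1, 0, 1 and 2 at an unadjusted p below 0.05, 1, 0, 0 and 1 by DESeq2, 0 of each by limma-voom). Of the 4 markers listed for dental mesenchyme 1 was called, higher in the anterior palate. It was Ambn, which the paper does not name for these cells. Of the 6 mesenchyme markers 3 were called higher in the posterior and 1 (Prrx1) in the anterior palate.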
